A study of Rattus norvegicus with 35 samples.

Results

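Laminectomy, the removal of the bony arch over the spinal cord, was compared with no operation at all. Of the 35 arrays of the series, 20 belong to this comparison: 5 rats 1 day after laminectomy (SH1), 5 rats at 3 days (SH3), 5 rats at 7 days (SH7) and 5 unoperated rats (CT). The other 15 arrays come from rats that also received a contusion and served here only for normalization and detection. All animals were adult female Wistar rats, 1 animal per array, and the groups were taken from the treatment and time point given in the labels. SH rats were anaesthetised with pentobarbital and had the laminectomy at the eighth thoracic vertebra without any blow to the cord. CT rats had no surgery, so anaesthesia, skin and muscle wound, bone removal and recovery cannot be told apart as parts of the difference between SH and CT. Total RNA of a short cord fragment centred on the operated level was labelled with the green dye Hy3 and hybridized to Exiqon miRCURY LNA arrays, whose probes carry human, mouse, rat and some viral microRNA names. Because whole tissue was homogenised, fewer cells of a type and less of a microRNA per cell cannot be told apart.

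MicroRNAs are short RNAs that pair through their seed with messenger RNAs and lower their translation or stability. In the cord, miR-124 is known as a microRNA of neurons, miR-219 and miR-338 of oligodendrocytes, miR-223 and the miR-142 strands of blood-derived immune cells, and miR-451 and miR-144 of red blood cells. miR-21, miR-146a and miR-155 are known to be induced in many cell types by inflammatory signals, and miR-146a is known to damp Toll-like receptor signalling. Sham-operated animals are the usual baseline for contusion, and the comparison of SH with CT asks whether the operation that exposes the cord is itself followed by other microRNA levels.

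The mature sequences of the microRNAs on which the results turn are given first, as listed by RefSeq for the rat genome GRCr8, with the seed (bases 2 to 8) in capitals. The miR-21 hairpin is shown with both strands because both were measured, and the miR-146, miR-20 and let-7 pairs are shown because their members share a seed.
miR-21: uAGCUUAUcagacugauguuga
miR-21*: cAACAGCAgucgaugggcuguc
miR-223: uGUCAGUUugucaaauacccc
miR-146a: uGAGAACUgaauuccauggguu
miR-146b: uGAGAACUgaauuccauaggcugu
miR-155: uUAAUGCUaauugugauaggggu
miR-23a: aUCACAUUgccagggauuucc
miR-20a: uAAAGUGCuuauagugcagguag
miR-20b-5p: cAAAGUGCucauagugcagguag
let-7a: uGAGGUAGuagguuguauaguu
let-7d: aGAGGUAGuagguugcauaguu

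miR-21 lies at chr10:71902653-71902674 on the minus strand and miR-21* at chr10:71902615-71902636 of the same hairpin. miR-146a and miR-146b share the seed GAGAACU but come from different chromosomes, at chr10:28350053-28350074 (minus strand) and chr1:255144874-255144897 (plus strand). miR-20a, at chr15:98588318-98588340 (plus strand), and miR-20b-5p, at chrX:137343239-137343261 (minus strand), share AAAGUGC, and let-7a and let-7d share GAGGUAG. let-7d lies at chr17:16322273-16322294, close to a copy of let-7a at chr17:16320145-16320166, and a further let-7a copy lies at chr8:50805219-50805240, all on the plus strand. miR-223 lies at chrX:65151450-65151470 (plus strand), miR-155 at chr11:37261117-37261139 (plus strand) and miR-23a at chr19:40859778-40859798 (minus strand). miR-136, miR-31, miR-320 and miR-124 are named only.

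Of 1766 microRNA names on the array, 718 were tested. A name was tested when it was detected in at least 3 animals of any group of the series and varied between arrays, detected meaning that more than 0.5 of its spots were brighter than the negative control spots by 2 SD. Levels are log2 values after variance stabilization (VSN) of the background-subtracted green signal, so a difference of 1 is a 2-fold difference. The number of names detected per array was 567 to 1069 over the sham arrays and 497 to 1142 in CT. Arrays of the same group correlated with r between 0.833 and 0.972 in SH1, 0.905 and 0.982 in SH3, 0.951 and 0.992 in SH7, and 0.923 and 0.981 in CT. SH1 replicate 4 stood apart with a score of 27.1 on the first principal component. The scanner file of SH7 replicate 1 holds other values than the authors' table for that array (rank correlation 0.9386), so values are also given without these arrays where they matter. The tissue carried the markers of cord: miR-124 averaged 13.92, 14.33, 14.45 and 14.21 in SH1, SH3, SH7 and CT, miR-219-5p averaged 12.63, 12.94, 13.15 and 12.70, and miR-10b, a microRNA of the trunk level of the body axis, averaged 11.04, 11.41, 11.59 and 11.27. miR-1, a muscle microRNA, was detected on 2, 0, 1 and 2 of the 5 arrays of these groups. SH1 replicate 3 had the highest miR-1 of all SH and CT arrays, at 8.14. It was also the highest in the muscle microRNAs miR-133a (9.02), miR-133b (7.18) and miR-206 (7.73), but not in miR-499 or miR-208.

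No microRNA passed the test over all names after laminectomy. The lowest p belonged to the proprietary sequence miRPlus-A1027 in SH1, followed by miR-223 (2.44-fold the CT level), to miR-21 in SH3 (3.4-fold) and over all sham animals, and to miR-136 in SH7 (2.4-fold). With limma and Benjamini-Hochberg adjustment over 718 names, 0 microRNAs (0%) had an adjusted p under 0.05 in SH1, SH3 or SH7 against CT, and also 0 in the 15 sham arrays together against CT. The lowest adjusted p was 0.998 for SH1, 0.133 for SH3, 0.579 for SH7 and 0.668 for all sham animals. At an unadjusted p under 0.05, a threshold that passes that share of names where nothing differs, 20 names (2.79%) passed in SH1, 36 (5.01%) in SH3, 61 (8.5%) in SH7 and 23 (3.2%) in all sham animals. The Rank Product, the study's other test, called 0, 1, 4 and 4 names in these 4 comparisons, those over all sham animals being miR-21, miR-223, miR-136 and miRPlus-E1077, each higher. Apart from miR-21, whose values are given below, no name had an adjusted p under 0.998 in SH1, 0.604 in SH3, 0.579 in SH7 or 0.978 in all sham animals, so adjusted p-values are not repeated for each name. A p-value here measures the spread between animals, and the comparisons share the same 5 CT animals.

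Most names that passed the unadjusted threshold were higher after laminectomy. In SH1 17 names (2.37%) were higher and 3 (0.418%) lower, in SH3 33 (4.6%) higher and 3 (0.418%) lower, in SH7 59 (8.22%) higher and 2 (0.279%) lower, and in all sham animals 20 (2.79%) higher and 3 (0.418%) lower. This split depended on the scaling. The median difference over all 718 names was 0.00 in SH1, 0.12 in SH3, 0.15 in SH7 and 0.10 in all sham animals. With the authors' own VSN values, where that median was 0.01 in SH3 and -0.02 in SH7, 18 names were higher and 18 lower in SH3, 18 higher and 11 lower in SH7, and 6 higher and 10 lower in all sham animals. With each array scaled to the 75th percentile of the names detected on every array, 4 were higher and 41 lower in SH3, 4 higher and 72 lower in SH7, and 3 higher and 27 lower in all sham animals. As a ratio of the green over the red signal of each spot, 17 names passed the unadjusted threshold in SH7 in place of 61, and 99 in SH3 in place of 36, of which 40 were higher and 59 lower. Here and below, this ratio had its trend with spot brightness removed within each array (loess). That step also centres the ratios of each array. Of the 229 names that carry a rat microRNA, 4 (1.75%), 20 (8.73%), 40 (17.5%) and 12 (5.24%) passed the unadjusted threshold in SH1, SH3, SH7 and all sham animals.

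The precision of 5 animals per group set what could be seen. The median half-width of the 95% confidence interval was 0.66 on the log2 scale for a single day, which is 1.58-fold, and 0.54 or 1.45-fold for the 15 sham animals together. The interval lay within ±1 for 510 names in SH1, 424 in SH3, 411 in SH7 and 598 in all sham animals. For these names a difference of more than 2-fold lay outside the interval. The difference itself exceeded 1 in either direction for 13, 3, 6 and 2 names.

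**Figure D1:**
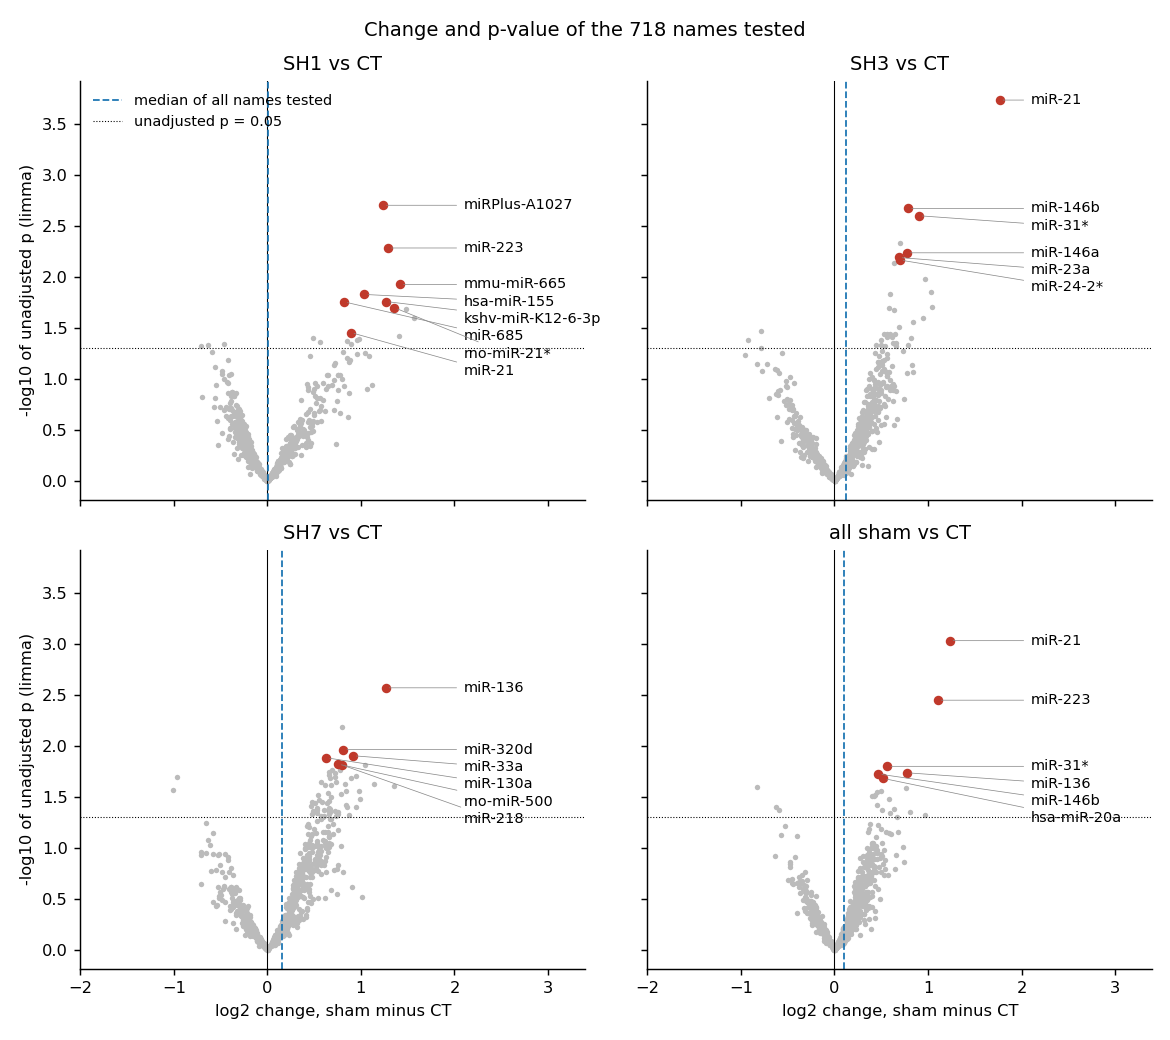
Each panel plots the log2 difference, sham minus CT (x axis), against the −log10 of the unadjusted limma p (y axis) for the 718 names tested, with the names of lowest p in red, the median of all names as a dashed line and unadjusted p = 0.05 as a dotted line. miR-21 stands highest in the SH3 panel (1.77, adjusted p = 0.133), and the median line lies at 0.00, 0.12, 0.15 and 0.10 in the SH1, SH3, SH7 and all-sham panels.

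miR-21, which is known to be induced in glia and immune cells after injury, had the lowest p of all names in SH3 and over all sham animals. It measured 11.56, 8.97, 10.49, 10.24 and 9.70 in SH1 animals, 11.12, 11.00, 11.14, 12.24 and 9.83 in SH3 animals, 10.40, 10.06, 10.12, 10.45 and 10.66 in SH7 animals, and 9.78, 8.98, 9.22, 8.88 and 9.64 in CT animals. All SH3 and all SH7 animals lay above every CT animal, while in SH1 3 of 5 did and the other two lay within the CT range. The SH3 mean was 11.07 ± 0.85, against 9.30 ± 0.40 in CT (SD, n = 5 each), a difference of 1.77 (SE 0.40, interval 0.94 to 2.59) or 3.4-fold, with a limma adjusted p = 0.133. This was 1.64 above the median of all names. The SH1 mean of 10.19 ± 0.96 was 0.89 above CT (adjusted p = 0.998) and the SH7 mean of 10.34 ± 0.25 was 1.04 above CT (adjusted p = 0.579). Over the 15 sham animals miR-21 averaged 10.53 ± 0.80, 1.23 above CT (SE 0.33, interval 0.56 to 1.90, adjusted p = 0.668), and 13 of 15 sham animals lay above all CT animals. miR-21 was the 1 name the Rank Product called in SH3.

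The adjusted p of miR-21 in SH3 moved across 0.05 with the animals and groups in the fit, and lay well above it under several other normalizations. It was 0.0352 with all 7 groups of the series in 1 fit, 0.0343 with arrays weighted by their quality, 0.0314 without SH1 replicate 1 and 0.0143 without SH3 replicate 5, where the difference was 2.08. Without SH3 replicate 4, the highest animal, the difference was 1.47 (adjusted p = 0.713). In SH3 the lowest limma adjusted p of any name was 0.324 with the authors' VSN values and 0.421 with normexp and quantile normalization. With spike-in scaling that lowest value was 0.997, and as a ratio of green over red miR-21 had an adjusted p = 0.338. Over all processing alternatives and left-out arrays the miR-21 difference in SH3 ran between 1.17 and 2.08, and its unadjusted p stayed under 0.05 in 39 of 39 settings. In SH7 the miR-21 difference was 1.02 without SH7 replicate 1, 0.67 with normexp and quantile normalization and 0.49, no longer past the unadjusted threshold, as a ratio of green over red. It passed that threshold in 35 of 39 settings.

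miR-21*, the other strand of the same hairpin, followed a different pattern. The probe with the rat name rno-miR-21* measured 5.12, 6.69, 5.14, 9.06 and 6.24 in SH1, 5.46, 3.63, 5.56, 6.40 and 5.39 in SH3, 5.31, 5.17, 5.34, 5.52 and 6.01 in SH7, and 4.78, 5.39, 5.41, 4.62 and 5.26 in CT. Only SH1 replicate 4 was far above the rest, and the groups overlapped on each day. The SH1 mean was 6.45 ± 1.61 and the CT mean 5.09 ± 0.37, with rno-miR-21* detected on 4 and 3 of 5 arrays, a difference of 1.36 (SE 0.54, adjusted p = 0.998) that was 0.71, and no longer past the unadjusted threshold, without SH1 replicate 4. In SH3, where miR-21 itself was furthest above CT, rno-miR-21* differed by 0.19.

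**Figure D2:**
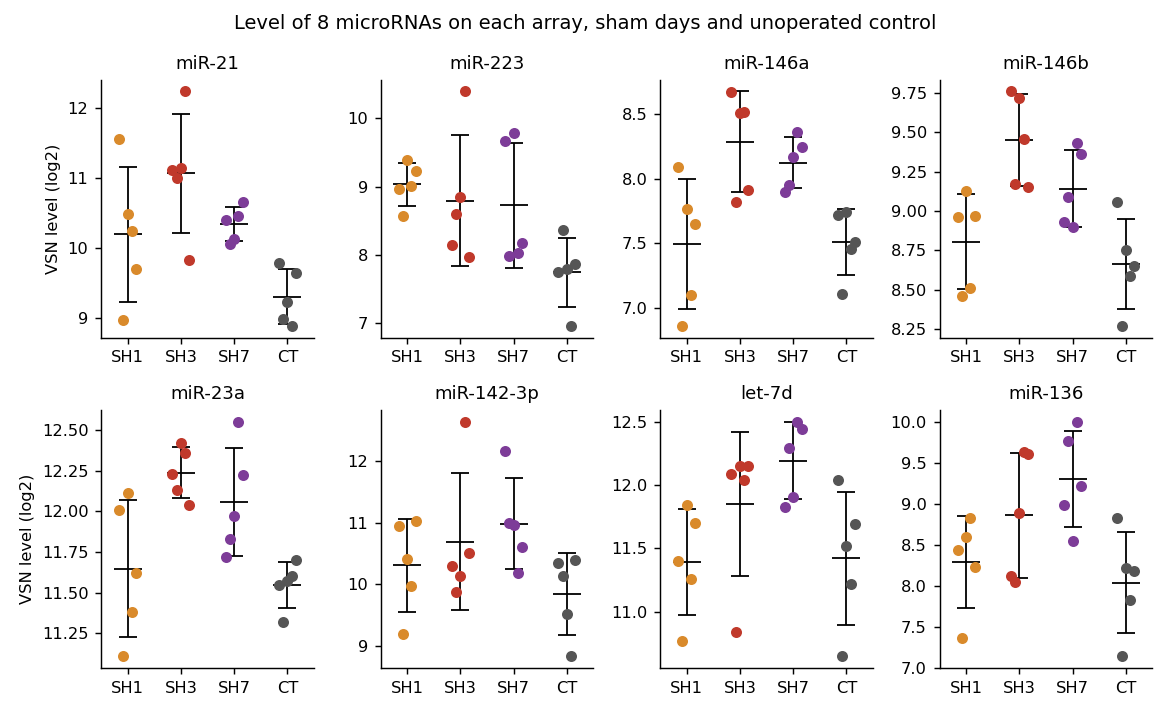
Each panel shows the VSN level (log2, y axis) of 1 microRNA on every array of SH1, SH3, SH7 and CT (x axis), with 1 point per animal, the mean as a horizontal bar and the SD as whiskers (n = 5 per group); the y axes do not start at 0. All 5 SH3 and all 5 SH7 animals lie above the 5 CT animals for miR-21, miR-146a and miR-23a, and all 5 SH1 animals for miR-223.

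miR-223, a microRNA of neutrophils and other myeloid cells, was the microRNA of lowest p with a rat name 1 day after surgery. It measured 8.96, 8.57, 9.39, 9.01 and 9.23 in SH1 animals, 8.15, 8.60, 8.84, 10.39 and 7.97 in SH3 animals, 9.66, 7.99, 9.78, 8.03 and 8.17 in SH7 animals, and 7.75, 8.36, 7.79, 6.96 and 7.86 in CT animals. Every SH1 animal lay above every CT animal, and all 15 sham animals lay above the CT mean. The SH1 mean was 9.03 ± 0.31 and the CT mean 7.74 ± 0.50 (SD, n = 5 each), a difference of 1.29 (SE 0.42, interval 0.42 to 2.15) or 2.44-fold, with a limma adjusted p = 0.998. The SH3 mean was 8.79 ± 0.96, 1.05 above CT, and the SH7 mean was 8.73 ± 0.91, 0.98 above CT. Over all sham animals the miR-223 difference was 1.11 (SE 0.34, interval 0.40 to 1.81, adjusted p = 0.978).

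Single animals carried much of miR-223 on the later days. As a ratio of green over red the miR-223 difference was 0.68 in SH3 and 0.56 in SH7, and neither passed the unadjusted threshold. The SH3 difference was 0.65 without SH3 replicate 4, and the SH7 difference was 0.75 without SH7 replicate 1 and 0.72 without SH7 replicate 3, none of them past the unadjusted threshold. SH3 replicate 4 was also the highest SH3 animal, and SH7 replicates 1 and 3 the highest SH7 animals, in the red blood cell microRNA miR-144, which measured 12.44, 10.29, 10.14, 10.01 and 12.04 in SH1, 10.35, 9.94, 9.91, 14.01 and 11.71 in SH3, 13.32, 11.99, 13.10, 10.01 and 10.59 in SH7, and 10.74, 11.70, 11.96, 9.04 and 11.03 in CT. The mean level of the 3 red blood cell microRNAs tested (miR-451, miR-144 and miR-486) ranged between 9.04 and 11.01 in SH1, 9.11 and 11.99 in SH3, 8.94 and 11.37 in SH7, and 8.66 and 10.40 in CT. miR-144 overlapped between SH and CT on each day. The part of these 3 microRNAs in the miR-223 result was not tested.

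miR-142-3p, which is made in cells of the blood lineage, measured 10.94, 9.20, 10.41, 9.98 and 11.02 in SH1, 10.30, 9.87, 10.14, 12.63 and 10.51 in SH3, 12.16, 10.99, 10.96, 10.19 and 10.61 in SH7, and 10.35, 10.13, 9.52, 8.84 and 10.39 in CT. SH3 replicate 4 and SH7 replicate 1 were the highest animals of their groups, and the groups overlapped on all days. The miR-142-3p difference was 0.46 in SH1, 0.84 in SH3 and 1.14 in SH7 (SE 0.47, adjusted p = 0.579). The SH7 difference was 0.57 as a ratio of green over red. The SH3 difference was 0.36 without SH3 replicate 4 and the SH7 difference 0.84 without SH7 replicate 1, none of these 3 past the unadjusted threshold. miR-150, a microRNA of lymphocytes, had differences of -0.41, -0.29 and -0.05 in SH1, SH3 and SH7.

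The miR-146 pair, induced by NF-kB signalling, had SH1 means close to CT and SH3 and SH7 means above it. miR-146a measured 8.09, 6.86, 7.77, 7.10 and 7.65 in SH1, 8.67, 7.82, 8.51, 8.52 and 7.91 in SH3, 7.90, 7.95, 8.17, 8.36 and 8.25 in SH7, and 7.72, 7.11, 7.74, 7.46 and 7.51 in CT. All SH3 and SH7 animals lay above all CT animals, and SH1 spanned the CT range. The SH3 mean was 8.28 ± 0.39 and the CT mean 7.51 ± 0.26, a difference of 0.78 (SE 0.26, interval 0.25 to 1.30, adjusted p = 0.655) or 1.71-fold. The SH7 difference of miR-146a was 0.62 (adjusted p = 0.579) and the SH1 difference -0.01.

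miR-146b, with the same seed, measured 8.96, 8.46, 9.13, 8.51 and 8.97 in SH1, 9.76, 9.17, 9.72, 9.46 and 9.15 in SH3, 8.93, 9.09, 8.90, 9.43 and 9.36 in SH7, and 9.06, 8.27, 8.75, 8.59 and 8.65 in CT. SH3 lay wholly above CT, while SH1 and SH7 overlapped it. The SH3 mean was 9.45 ± 0.29 and the CT mean 8.66 ± 0.29, a difference of 0.79 (SE 0.23, interval 0.32 to 1.26, adjusted p = 0.604) or 1.73-fold. The differences were 0.48 in SH7 and 0.14 in SH1. With arrays weighted by quality, miR-146a and miR-146b passed the adjusted test in SH3 (adjusted p = 0.0443 and 0.0343) along with miR-21. Other alternatives gave smaller differences. With the authors' VSN values miR-146a and miR-146b differed by 0.52 and 0.59 in SH3, and by 0.31 and 0.23 in SH7. As a ratio of green over red they differed by 0.55 and 0.56 in SH3, and by 0.34 and 0.28 in SH7. In SH7 miR-146a passed the unadjusted threshold in 31 of 39 settings and miR-146b in 16 of 38. The pair is closely similar in sequence, and how far each probe also bound the other member was not measured.

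miR-155, which is induced in activated macrophages and microglia, was measured by a human-name and a mouse-name probe, and both were dim. hsa-miR-155 measured 5.90, 5.69, 6.15, 8.22 and 5.94 in SH1, 6.10, 5.10, 6.12, 6.87 and 5.63 in SH3, 5.70, 5.26, 5.33, 6.13 and 5.99 in SH7, and 5.40, 5.15, 5.74, 4.76 and 5.67 in CT. The SH1 mean was 6.38 ± 1.04 and the CT mean 5.34 ± 0.40, a difference of 1.04 (SE 0.39, adjusted p = 0.998) that was 0.58, and no longer past the unadjusted threshold, without SH1 replicate 4. mmu-miR-155 was detected on 4 of 5 SH3 arrays and on 0 of 5 CT arrays. With the scaling used here its SH3 mean of 5.37 ± 0.55 was at least 1.24-fold higher than CT (adjusted p = 0.847). The bound was set against the lowest signal of any detected name on each CT array where that exceeded the probe's own. It does not cover other scalings. The mmu-miR-155 difference in SH3 was 0.33 with the authors' VSN values, 0.26 with normexp and quantile normalization and 0.25 as a ratio of green over red. The measured CT mean of mmu-miR-155 was 4.40 ± 0.77. Both miR-155 probes overlapped between SH and CT on each day.

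Of the 10 microRNAs of immune cells and inflammation, all of which were tested, 3 were higher at an unadjusted p under 0.05 in SH1, 5 in SH3, 6 in SH7 and 6 in all sham animals, and 0 were lower, beside 2.79%, 5.01%, 8.5% and 3.2% of all names tested. Among rat names, which most of these 10 carry, the shares were 1.75%, 8.73%, 17.5% and 5.24%. Their median difference was 0.26, 0.78, 0.65 and 0.56, against 0.00, 0.12, 0.15 and 0.10 over all names tested. The mean level of the 10 ranged between 7.36 and 8.18 in SH1, 7.76 and 9.06 in SH3, 8.08 and 8.38 in SH7, and 7.10 and 7.74 in CT. All SH3 and SH7 arrays thus lay above all CT arrays in this mean. Under the processing alternatives the list median lay above that of all names by 0.45 to 0.89 in SH3 and 0.27 to 0.65 in SH7. The list was written with results of these data known, so these counts are a description.

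At 3 days, miR-23a and microRNAs of the same and other hairpins were also among those of lowest p. miR-23a, of the miR-23a, miR-27a and miR-24-2 cluster, measured 12.23, 12.13, 12.42, 12.36 and 12.04 in SH3, 11.72, 11.83, 11.97, 12.55 and 12.22 in SH7, and 11.55, 11.32, 11.57, 11.60 and 11.70 in CT. SH3 and SH7 lay wholly above CT, the lowest SH7 animal by a small margin, and SH1 (11.11 to 12.11) overlapped CT. The SH3 mean was 12.24 ± 0.16 and the CT mean 11.55 ± 0.14, a difference of 0.69 (SE 0.23, adjusted p = 0.655) or 1.61-fold, and the SH7 difference was 0.51. With scan day as a fixed block the SH3 difference of miR-23a was 0.14, and as a ratio of green over red it was 0.40. The block value rests on SH3 replicates 4 and 5, and no SH3 array shared a scan day with a CT array.

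miR-24-2*, from the same cluster, measured 8.20, 7.84, 8.03, 8.39 and 7.90 in SH3 and 6.97, 7.18, 7.63, 7.53 and 7.56 in CT, a difference of 0.70 (adjusted p = 0.655) that was 0.19 with scan day as a fixed block. miR-31*, the other strand of miR-31, measured 5.75, 5.65, 5.51, 5.89 and 5.40 in SH3 and 4.68, 4.92, 4.51, 5.08 and 4.49 in CT. Both lay wholly above CT in SH3. The miR-31* probe carries human and mouse names but no rat name. miR-31* was detected on 5 of 5 SH3 arrays and 1 of 5 CT arrays, and its difference was 0.90 (SE 0.27, interval 0.35 to 1.45, adjusted p = 0.604). In SH7 miR-31* differed by 0.80 (SE 0.27) and overlapped CT. The size of the miR-31* difference depended on the scaling. It was 0.33 in SH3 and 0.28 in SH7 with the authors' VSN values, and 0.29 and 0.26 with normexp and quantile normalization. As a ratio of green over red it was 0.29 and 0.30. miR-199a-3p, a microRNA of fibroblasts and other mesenchymal cells, averaged 7.19 ± 0.51 in SH3 and 6.15 ± 0.26 in CT, a difference of 1.04 (SE 0.39, adjusted p = 0.892). This difference was 0.57 with the authors' VSN values. With scan day as a fixed block miR-31* and miR-199a-3p differed by 0.33 and 0.50 in SH3. These block values, and that of miR-24-2*, rest on SH3 replicates 4 and 5.

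In SH3 12 names (1.67%) had no overlap with CT, and each of them was higher. Besides miR-21, miR-146a, miR-146b, miR-23a, miR-24-2* and miR-31*, these were miR-125b-5p, miR-24-1*, miR-34c-5p, miR-374a, miR-539 and miR-542-5p, which are named here after their values were seen. miR-125b-5p, which is abundant in glia and neurons, averaged 14.82 ± 0.15 in SH3 and 14.47 ± 0.18 in CT, a difference of 0.35 (SE 0.22). In SH1 only 2 names (0.279%) did not overlap CT, miR-223 and rno-miR-147, whose mouse counterpart is induced in stimulated macrophages. rno-miR-147 was dim, with means of 4.86 ± 0.27 in SH1 and 4.37 ± 0.18 in CT (difference 0.49, SE 0.22), and was detected on 4 and 1 of 5 arrays. In SH7 15 names (2.09%) did not overlap CT, of which 14 (1.95%) were higher. Over the 15 sham animals together 0 names (0%) were free of overlap with CT.

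At 7 days 8 of the 14 higher names free of overlap with CT carried names of the miR-17-92 cluster and its paralogues, which promote proliferation and are expressed in dividing cells. They were grouped after their values were seen. They were hsa-miR-106a, mmu-miR-106a, miR-106b, miR-17, miR-17-5p, hsa-miR-18a, hsa-miR-20a and rno-miR-20a, several of which are human, mouse and rat probes for closely similar sequences and cannot be counted as separate microRNAs. Of these, hsa-miR-106a, miR-17, hsa-miR-18a and hsa-miR-20a are human probes outside the list of 12, and the probe with the rat name of miR-18a was detected on 0 of 20 arrays. miR-17-5p measured 9.57, 7.93, 9.14, 8.86 and 9.38 in SH1, 9.93, 8.62, 9.25, 10.87 and 9.62 in SH3, 10.09, 9.52, 9.90, 9.49 and 9.54 in SH7, and 8.91, 8.77, 9.16, 7.98 and 9.26 in CT. Its SH7 mean of 9.71 ± 0.27 was 0.89 above the CT mean of 8.82 ± 0.51 (SE 0.36, adjusted p = 0.579). The SH3 difference of miR-17-5p was 0.84, and 0.54 without SH3 replicate 4. Without SH7 replicate 1 the SH7 difference was 0.79, and neither of these passed the unadjusted threshold. Measured as green over red, miR-17-5p and rno-miR-20a differed by 0.37 and 0.40 in SH7, neither past it.

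rno-miR-20a measured 9.24, 7.35, 8.59, 8.09 and 8.31 in SH1, 9.04, 7.83, 8.59, 10.20 and 8.67 in SH3, 9.28, 8.64, 8.87, 8.96 and 8.70 in SH7, and 8.31, 8.40, 8.06, 7.51 and 8.41 in CT. SH7 lay wholly above CT, and SH1 and SH3 overlapped it. The SH7 mean was 8.89 ± 0.25 and the CT mean 8.14 ± 0.38, a difference of 0.75 (SE 0.36) that was 0.66, and no longer past the unadjusted threshold, without SH7 replicate 1. miR-20b-5p, with the same seed, differed by 0.86 in SH7 and 0.94 in SH3, where it was detected on 5 of 5 arrays against 2 of 5 in CT. With the authors' VSN values the miR-20b-5p difference was 0.33 in SH7 and 0.41 in SH3. Of the 12 members of the miR-17-92 list 10 were tested. Their median difference was 0.17, 0.47, 0.61 and 0.41 in SH1, SH3, SH7 and all sham animals, and 0, 2, 5 and 2 of them passed the unadjusted threshold, beside 2.79%, 5.01%, 8.5% and 3.2% of all names and 1.75%, 8.73%, 17.5% and 5.24% of rat names. Each of the list members that passed was higher, as were 59 of the 61 names of any kind that passed in SH7.

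The let-7 family, which is high in mature neurons and glia, had higher means than CT at 7 days in the green signal, but lay close to the median of all names in its ratio to the red signal. rno-let-7a was among the brightest microRNAs and measured 14.48, 13.61, 14.40, 14.08 and 14.45 in SH1, 14.97, 13.94, 15.14, 14.66 and 14.97 in SH3, 14.49, 15.09, 15.07, 15.16 and 15.15 in SH7, and 15.03, 13.70, 14.74, 14.00 and 14.44 in CT. let-7d measured 11.40, 10.77, 11.84, 11.26 and 11.70 in SH1, 12.09, 10.84, 12.15, 12.04 and 12.15 in SH3, 11.83, 12.29, 11.91, 12.50 and 12.44 in SH7, and 12.04, 10.65, 11.52, 11.22 and 11.69 in CT. In both, CT replicate 1 lay within the SH7 range, so that SH7 and CT overlapped.

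let-7d averaged 12.19 ± 0.31 in SH7 and 11.42 ± 0.53 in CT, a difference of 0.77 (SE 0.30, interval 0.15 to 1.39, adjusted p = 0.579), and rno-let-7a averaged 14.99 ± 0.28 in SH7 and 14.38 ± 0.54 in CT, a difference of 0.61 (SE 0.28). Of the 9 members of the family, miR-98 included, 7 passed the unadjusted threshold in SH7, with let-7e (0.45) and let-7g (0.32) as the exceptions, beside 8.5% of all names and 17.5% of rat names. The family's median difference was -0.13 in SH1, 0.38 in SH3, 0.61 in SH7 and 0.34 in all sham animals. The differences were smaller as a ratio to the red channel, as for other names given for SH7. On the ratio of green over red, with its trend with brightness removed within each array, let-7d differed by 0.12 and rno-let-7a by -0.08 in SH7. Whether the red signal or the removal of the trend made these differences smaller was not tested. On that ratio the family median less the median of all names was -0.01 in SH7, while in the green signal alone it was 0.46. What was labelled in the red channel is not given in the sources used here.

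miR-136, of the imprinted Dlk1-Dio3 cluster of brain-enriched microRNAs, had the lowest p at 7 days. It measured 8.44, 7.36, 8.59, 8.82 and 8.23 in SH1, 8.12, 8.05, 8.89, 9.63 and 9.60 in SH3, 8.98, 9.76, 8.55, 10 and 9.22 in SH7, and 8.83, 7.14, 8.21, 7.82 and 8.18 in CT. In SH7 4 of 5 animals lay above every CT animal. The SH7 mean was 9.30 ± 0.58 and the CT mean 8.04 ± 0.62, a difference of 1.27 (SE 0.38, interval 0.49 to 2.05, adjusted p = 0.579) or 2.4-fold, and the Rank Product called miR-136 in SH7 and in all sham animals. It differed by 0.25 in SH1 and 0.82 in SH3, the SH3 value being 0.63, and not past the unadjusted threshold, without SH3 replicate 4. As a ratio to the red channel the SH7 difference was 0.37. The other members of the cluster did not share the size of this difference: the median over 26 tested members of 32 was -0.15 in SH1, 0.22 in SH3 and 0.31 in SH7, and miR-136 was the 1 member past the unadjusted threshold in SH7.

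Other microRNAs of lowest p at 7 days were of several levels and origins. miR-130a, known from blood vessels and blood cells, measured 10.41, 10.60, 10.81, 11.00 and 10.79 in SH7 and 10.39, 9.57, 10.27, 9.97 and 10.25 in CT, a difference of 0.63 (adjusted p = 0.579). rno-miR-500 measured 6.65, 6.83, 6.95, 7.02 and 6.98 in SH7 and 6.43, 6.01, 6.65, 5.44 and 6.13 in CT, a difference of 0.75 (SE 0.29). Neither overlapped between SH7 and CT, the lowest SH7 animal of each lying just above the highest CT animal. miR-33a, which is encoded within a gene for a regulator of cholesterol synthesis, averaged 10.09 ± 0.47 in SH7 and 9.18 ± 0.40 in CT (0.91, SE 0.34), and miR-320d averaged 8.62 ± 0.32 in SH7 and 7.81 ± 0.43 in CT (0.81, SE 0.29). The miR-33a and miR-320d probes carry human names only. As a ratio of green over red the SH7 differences of miR-130a, miR-33a and miR-320d were 0.15, 0.21 and 0.19, none past the unadjusted threshold, and that of rno-miR-500 was 0.30.

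miR-218, known from motor neurons, averaged 8.58 ± 0.50 in SH7 and 7.78 ± 0.47 in CT (0.80, SE 0.30), and was 1 of 2 neuronal microRNAs past the unadjusted threshold in SH7, with miR-137 (0.65, SE 0.30), which was detected on 2 of 5 arrays in either group. These were 2 of 13 tested, beside 17.5% of rat names and 8.5% of all names in SH7. The 13 tested of 15 neuronal microRNAs had a median difference of -0.15 in SH1, 0.22 in SH3 and 0.33 in SH7. The mean level of all 15 ranged between 8.32 and 8.79, 8.72 and 9.14, and 8.49 and 9.33 on these days, against 8.33 to 8.93 in CT. miR-338 of oligodendrocytes averaged 11.46 ± 0.48 in SH7 and 10.61 ± 0.53 in CT (0.84, SE 0.38) and was the 1 of 5 oligodendrocyte members past that threshold. The SH7 differences of miR-218 and miR-338 were 0.33 and 0.14 as a ratio of green over red, neither past it. Their median was -0.07, 0.24 and 0.47 in SH1, SH3 and SH7, and their mean level ranged between 9.05 and 10.34, 9.40 and 10.69, and 9.99 and 10.90, against 9.54 to 10.46 in CT. In the miR-30 family 2 of 5 members passed in SH7, miR-30a (0.53, SE 0.25) and miR-30d (0.72, SE 0.28), beside the same shares.

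Markers of the vessel wall, blood and muscle stood as follows. The 3 tested members of the endothelial list, miR-126*, miR-221 and miR-222, had a median difference of -0.00 in SH1, 0.62 in SH3 and 0.58 in SH7. The SH3 and SH7 medians are the values of miR-221. Of the 3, only miR-126* was taken as a marker of endothelium. miR-222 differed by 0.66 in SH3 and 0.67 in SH7 (SE 0.31 each), and miR-126* by 0.30 and 0.28. miR-126 itself, the other marker of endothelium, was detected on every SH and CT array but varied too little between arrays to be tested. It ranged between 12.05 and 12.52 in SH3, 11.62 and 12.33 in SH7, and 11.64 and 12.09 in CT. The list of the mesenchyme and vessel wall held 7 members, among them miR-10a-5p and miR-10b, which are microRNAs of the body axis. Its medians were -0.03, 0.39 and 0.36, with only miR-199a-3p past the unadjusted threshold, in SH3. The 3 red blood cell members had medians of 0.14, 0.20 and 0.43, and the 5 tested muscle members medians of 0.32, 0.07 and 0.43, with 0 past the threshold in either list. The muscle list averaged between 5.64 and 7.08 in SH1, 5.67 and 6.40 in SH3, 6.04 and 6.51 in SH7, and 5.73 and 6.29 in CT. SH1 replicate 3 was the highest array in miR-133a, miR-133b and miR-206, as given above. The 3 members of the miR-29 family had medians of 0.11, 0.51 and 0.33. The part of these cells in the other results was not tested.

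**Figure D3:**
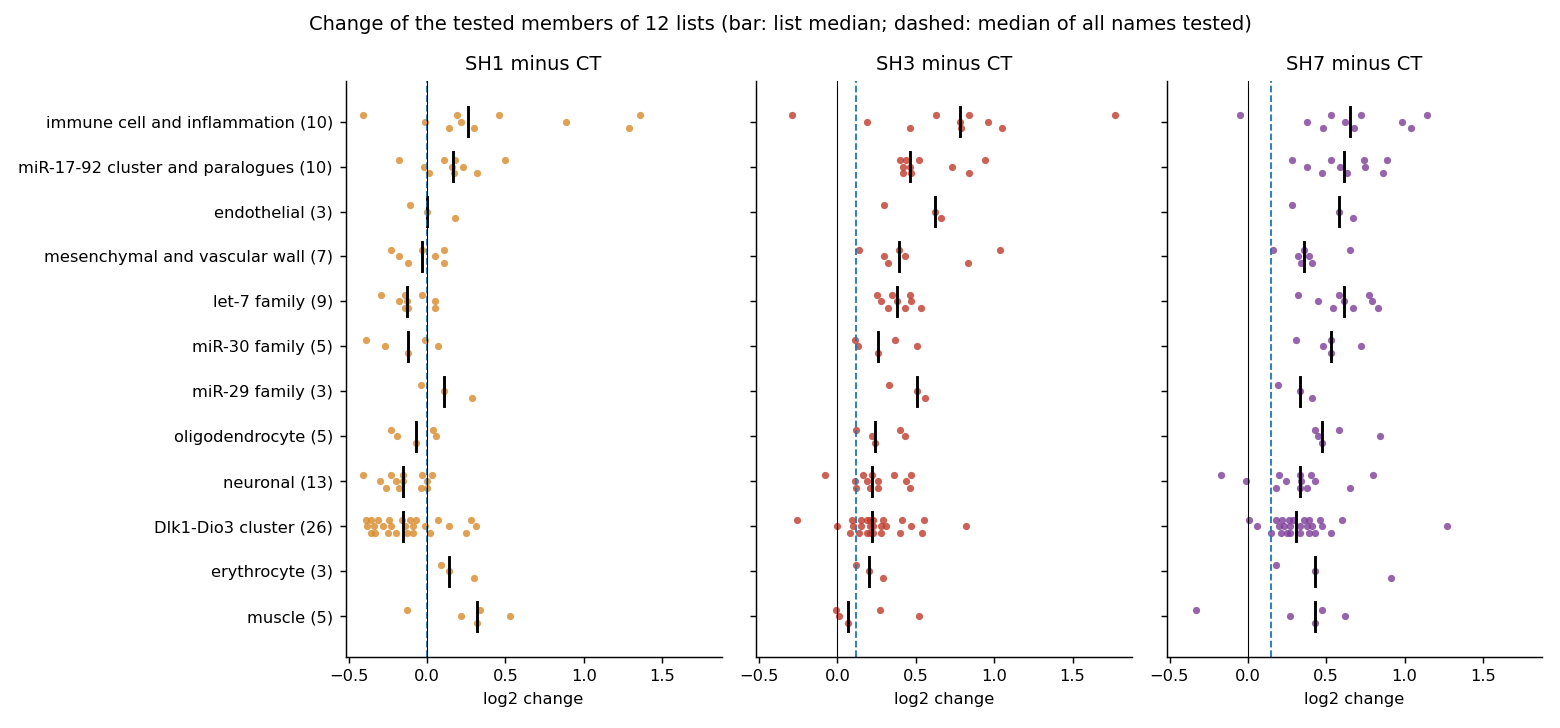
Each row is a list of microRNAs, with the number tested in brackets, and each point is a member's log2 difference from CT (x axis) in SH1, SH3 and SH7 (panels), the black bar being the list median and the dashed line the median of all 718 names. The immune and inflammation list has medians of 0.26, 0.78 and 0.65, and the let-7 family has medians of -0.13, 0.38 and 0.61 in the green signal, which in SH7 was -0.01 relative to all names as a ratio of green over red.

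Several names of lowest p in SH1 were far higher in 1 animal than in the others. miRPlus-A1027, a proprietary human sequence with the lowest p in SH1, measured 6.53, 7.13, 5.75, 8.40 and 6.28 in SH1 and 5.58, 5.78, 5.33, 5.52 and 5.69 in CT (difference 1.24, SE 0.36, adjusted p = 0.998). mmu-miR-665 measured 7.14, 9.12, 6.50, 10.58 and 8.19 in SH1 and 7.10, 6.59, 6.21, 7.40 and 7.14 in CT (1.42, SE 0.52), and the viral probe kshv-miR-K12-6-3p measured 5.14, 6.59, 5.65, 9.42 and 6.62 in SH1 and 5.57, 5.59, 5.16, 5.02 and 5.73 in CT (1.27, SE 0.50). SH1 replicate 4 was the highest animal in each. Without it the differences of miRPlus-A1027, mmu-miR-665 and kshv-miR-K12-6-3p were 0.84, 0.85 and 0.59, of which only that of miRPlus-A1027 passed the unadjusted threshold. Without this array 5 names were higher and 6 lower in SH1 at an unadjusted p under 0.05, in place of 17 and 3. miR-685, in which SH1 replicates 1 and 4 were highest, averaged 6.11 ± 0.73 in SH1 and 5.29 ± 0.54 in CT (0.82, SE 0.32).

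With the scaling used here few microRNAs were lower after laminectomy, whereas scaling to the 75th percentile of the names detected on every array gave 41 lower in SH3 and 72 in SH7. Those that passed the unadjusted threshold here are named after their values were seen, and none of their probes carries a rat name. miR-923, a probe whose sequence is now regarded as a fragment of ribosomal RNA, averaged 11.02 ± 0.43 in SH3, 10.93 ± 0.33 in SH7 and 11.94 ± 1.25 in CT, differences of -0.92 and -1.01. The Rank Product called it in SH7, with miRPlus-F1202 and miRPlus-F1050. miR-922 differed by -0.79 and hsa-miR-298 by -0.78 in SH3, miR-1192 by -0.71, miR-411* by -0.64 and miR-376c* by -0.46 in SH1. miRPlus-F1202 was detected on 0 of 5 SH7 arrays and 2 of 5 CT arrays, so no size is given for it. miRPlus-A1073 was the 1 name (0.139%) that lay wholly below CT in SH7, at 5.46 ± 0.14 against 5.88 ± 0.11.

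The microRNAs measured by qPCR in the study were described on the arrays over all sham animals. miR-21, miR-223 and miR-146a are given above, with miR-146a at 0.46 (SE 0.21) and miR-146b at 0.47 (SE 0.19) over all sham animals. miR-29c differed by 0.42, rno-miR-107 by 0.23, miR-145 by 0.22, miR-219-5p by 0.21 and miR-468 by 0.02, beside the median of 0.10 over all names. The median of these 8 was 0.04 in SH1, 0.45 in SH3 and 0.43 in SH7.

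The sham days were also compared with each other. With limma's F-test for any difference between SH1, SH3 and SH7, 0 names had an adjusted p under 0.05 (lowest 0.452) and 77 (10.7%) passed at an unadjusted p under 0.05. Day 7 minus day 1 gave 127 (17.7%), 103 of them higher on day 7, and day 3 minus day 1 gave 77 (10.7%), 60 of them higher on day 3. Day 7 minus day 3 gave 1 name (0.139%). The splits between days are given for the scaling used here only. With it the median of all names against CT was 0.00, 0.12 and 0.15 in SH1, SH3 and SH7. These medians were -0.00, 0.01 and -0.02 with the authors' VSN values and -0.72, -0.15 and 0.23 with spike-in scaling. The day 1 group also holds SH1 replicate 4, which stood apart on the first component. miR-146a was 0.79 higher in SH3 than in SH1 (SE 0.26) and 0.63 higher in SH7 than in SH1, with an F-test adjusted p = 0.452. miR-21 was 0.88 higher in SH3 than in SH1 and differed by -0.73 in SH7 against SH3. miR-223 had similar means on the 3 days, and its F-test did not pass the unadjusted threshold. miR-136 and let-7d were 1.01 and 0.80 higher in SH7 than in SH1.

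Measures of the whole arrays were tested between sham and control animals. Over 28 two-sided exact permutation tests of detected names, signal over the negative controls, their SD, scanner gain and scores on the first 3 components, the lowest p was 0.071, for the score on the second component in SH7 (mean 4.56) against CT (mean -2.70), and the lowest adjusted p was 0.95, so that 0 passed. With 252 splits of 5 against 5 the smallest p possible was 0.0079. Scanning took 12 days for the 20 arrays, with no more than 3 of them on any day. No SH3 array was scanned on the same day as a CT array, so the SH3 difference could not be taken within a scan day. Only SH3 replicates 4 and 5 shared a scan day with another group, SH1 and SH7 respectively. With scan day as a fixed block, the SH3 differences therefore rest on these SH3 arrays and reach CT only by way of other sham arrays.

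In 4 pairs a sham and a CT array were scanned on the same day. They rest on 3 CT arrays and are not independent, since CT replicate 5 served for SH1 replicate 5 and SH7 replicate 5. miR-223 was higher in each sham array of these pairs, by 1.37 and 1.62 for the SH1 arrays and by 0.30 and 1.99 for the SH7 arrays. miR-21 was higher by 1.03 and 0.90 in the SH7 arrays and by 0.07 and 0.09 in the SH1 arrays. miR-146a was higher by 0.73 and 0.43 in SH7, and differed by 0.13 and -0.60 in SH1. miR-136 was higher by 1.04 and 0.34 in SH7, and differed by 0.05 and -0.46 in SH1. With scan day as a fixed block, miR-21 differed by -0.16 in SH1, 1.23 in SH3 and 1.19 in SH7, and miR-223 by 1.46, 2.08 and 1.38. In SH3 miR-146a and miR-146b differed by 0.48 and 0.42 with this block, and miR-142-3p by 2.19. All SH3 values with this block rest on SH3 replicates 4 and 5, and replicate 4 was the highest SH3 animal in miR-223 and miR-142-3p. For miR-21 in SH1 the within-day values were thus close to 0 or below it.

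**Figure D4:**
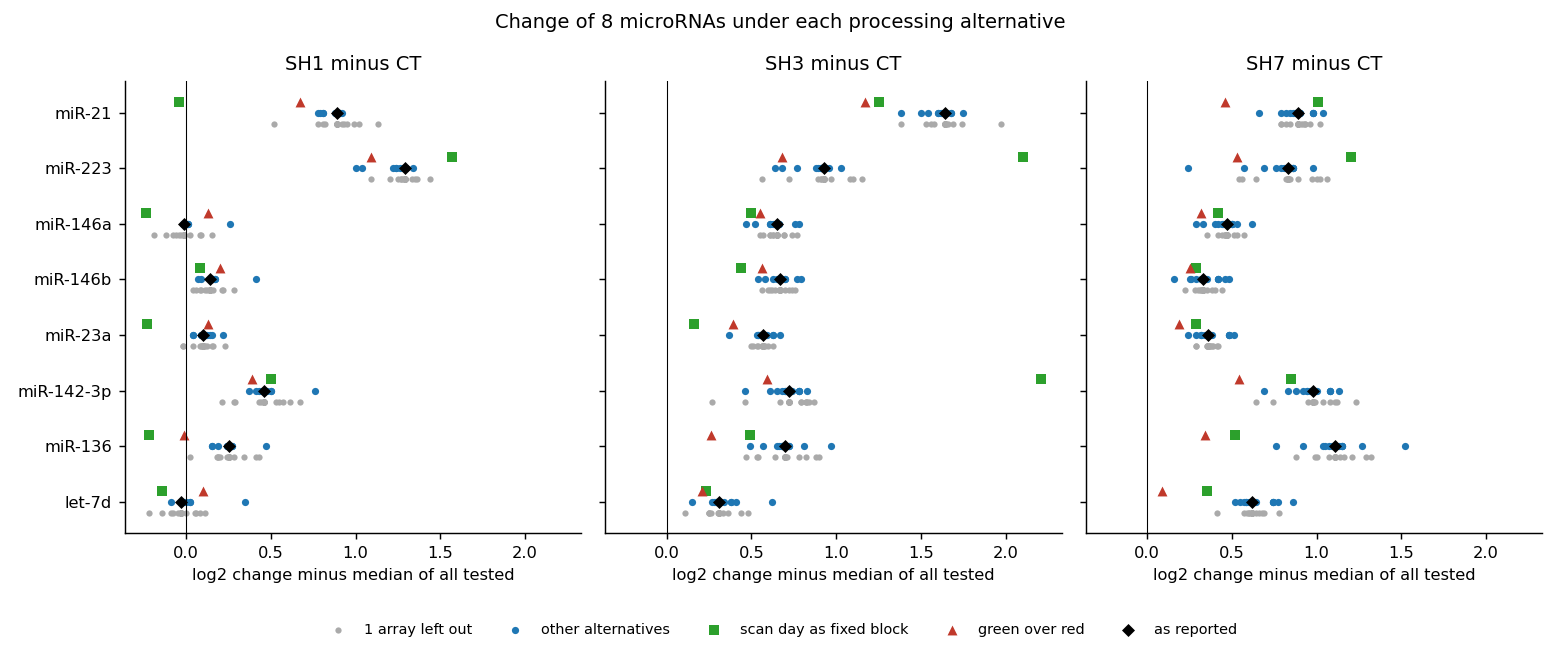
For 8 microRNAs (rows) the log2 difference from CT minus the median of all names tested (x axis) is shown in SH1, SH3 and SH7 (panels) as reported (diamond), with each array left out (grey), with scan day as a fixed block (square), as a ratio of green over red (triangle) and under the other alternatives (blue). miR-21 in SH3 stays between 1.17 and 1.97 on this scale, and miR-223 in SH1 between 1.00 and 1.57. In SH3 the squares rest on SH3 replicates 4 and 5.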

How the data were processed

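The scanner files, as deposited, hold intensity values of 9360 spots per array, which the authors read with the scanner software, without normalization, as the median brightness of each spot and of its surroundings at 532 nm (green) and 635 nm (red). Per the file headers they also give a quality score per spot, in which -100 marks a bad and -50 a missing spot. A value table deposited by the authors holds log2 values after variance stabilization (VSN) of the same 35 arrays. When checked, 33 of its arrays followed the green foreground in the same order, and SH7 replicate 1 and a contused array did not. The scanner file of 1 array writes decimal commas and was read accordingly.

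Green intensities minus local background were put through VSN (least-trimmed fit, 0.9 of the spots kept) over all 35 arrays, and the median of the spots of a name was taken. Names detected in at least 3 animals of a group with an interquartile range over 0.5 on the log2 scale were tested. The 20 arrays were fitted in limma with a mean per group, and Benjamini-Hochberg adjustment was made over 718 names with a threshold of 0.05. For Rank Product, 100 permutations were drawn. Groups were taken from the labels and were not paired. The steps were tested on simulated data. Names in the text are those of the 6 lowest p in each comparison, the 3 lowest p with a rat name, the qPCR microRNAs of the study, and list members past an unadjusted p of 0.05 or of highest mean. Members and lists were chosen with earlier results of these data known. Alternatives covered background, normalization, detection, arrays in the fit, weights, scan day, replicate number, each array left out and, added after the data were seen, the ratio of green over red. For that ratio both channels were background-corrected by normexp with an offset of 50. A loess trend of the ratio with brightness was then removed within each array. Python 3.11.15, numpy 2.4.6, pandas 2.3.3, scipy 1.17.1, matplotlib 3.10.9, R 4.3.3 and limma 3.58.1 were used. Depth is not defined for arrays, and the number of animals limits the precision.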

Additional observations from a re-analysis of the deposited data

Results flagged for a closer look

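Values of single arrays far from the other 4 of their group were looked for in 284 groups of 5, where chance marks about 1 in 20 (14.2 groups), and 18 were found. SH3 replicate 2 had 941 names detected, against 651 to 688 on the other SH3 arrays, and was the lowest of its group in let-7c (12.88), let-7d (10.84), let-7i (11.57), miR-137 (4.35) and miR-34b (7.25). SH7 replicate 4 had 771 names detected, against 567 to 598, and the SD of the negative controls on SH1 replicate 1 was 29.9, against 6.67 to 10.9. SH3 replicate 4 measured 12.63 for miR-142-3p, against 9.87 to 10.51, and SH1 replicate 4 measured 8.22 for hsa-miR-155, against 5.69 to 6.15. SH7 replicate 1, whose scanner file differs from the authors' table, was the lowest of its group in miR-133a (7.50) and rno-let-7a (14.49), and SH7 replicate 3 in miR-93 (8.40). In SH1, replicate 1 was the highest in miR-29a (14.25), replicate 2 the lowest in miR-222 (7.02) and replicate 3 the highest in rno-miR-107 (9.29). In CT, replicate 5 was the highest in miR-20b-5p (6) and replicate 4 the highest in miR-29c (11.07).

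The red channel, for which the labels name no dye or RNA, held signal on every array: a median of 634.5 names per array (403 to 904) were brighter than its negative controls. The lowest rank correlation of red signal between arrays was 0.778, and the highest and lowest red signal of miR-21 over the 20 arrays differed 2.69-fold, against 23.2-fold in green. What the red channel measured is not given in the sources used here.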

How the results depend on the processing

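The count of 0 calls held in SH1 under every alternative run. In SH3 1 name was called with all 7 groups in 1 fit and by the Rank Product, 3 with array weights, and 0 to 1 with 1 array left out, where the call was miR-21 without SH1 replicate 1 or SH3 replicate 5. In SH7 114 names were called with array weights (95 higher, 19 lower) and 4 by the Rank Product, in all sham animals 4 by the Rank Product, and between the sham days 5 with array weights. The cause was not tested. Without SH3 replicate 2 89 names passed an unadjusted p of 0.05 in SH3, in place of 36, and without SH3 replicate 4 21 did. With normexp and quantile normalization 19 names were higher and 23 lower in SH3, 17 and 10 in SH7, and 8 and 11 in all sham animals. As a ratio of green over red these splits were 40 and 59, 13 and 4, and 21 and 7. Spike-in scaling moved the median of all names to -0.72, -0.15 and 0.23 in SH1, SH3 and SH7.

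Of 2624 alternative values of 68 results on single microRNAs, 25 reversed direction and 30 passed the adjusted threshold in place of missing it. The ratio of green over red reversed let-7f (-0.04) and rno-let-7a (-0.08) in SH7 and miR-219-5p (-0.04) in all sham animals. Spike-in scaling reversed miR-685 in SH1 (-0.16) and miR-145 (-0.07), miR-219-5p (-0.04) and rno-miR-107 (-0.03) in all sham animals. Scan day as a fixed block reversed miR-21 in SH1 (-0.16) and miR-145 (-0.02), and the 75th percentile of the names detected on all arrays reversed miR-145 (-0.02). miR-468, at 0.02, reversed with the authors' values (-0.09), normexp (-0.08), both percentiles (-0.20 and -0.04), spike-ins (-0.25), VSN of the 20 arrays (-0.02), array weights (-0.09), scan day as a fixed (-0.12) or random block (-0.01) and green over red (-0.23), and ran between -0.14 and 0.16 with 1 array left out.

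The replicate numbers did not pair the animals: arrays of the same number had a mean correlation of 0.018 in their deviations from the group means, and 3 of 20 correlated best with their own number. With the replicate number as a block 0 names were called, and 25, 36, 64 and 24 passed the unadjusted threshold in SH1, SH3, SH7 and all sham animals.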
